A study of Mus musculus with 8 samples.

Results

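Magel2, Ndn, Mkrn3, Peg12, Snrpn and Ube3a, the protein-coding imprinted genes of the mouse chromosome 7 segment that corresponds to the human Prader-Willi and Angelman region, were examined by RNA sequencing of the hippocampus in the presence and absence of Mbd2. The 6 genes were taken by symbol from a table of 19201 genes, and all 6 were found. The series held 4 wild-type and 4 Mbd2-/- libraries of ribosomal RNA-depleted total RNA on a C57BL/6 background. Hippocampi of 2 mice, 10 to 12 weeks old, were pooled for every library. Mbd2 encodes a reader of methylated CpG, the Mbd2-/- mice carry a constitutive deletion in every cell, and both genotypes came from heterozygous parents. Pools were the replicates, so the spread between libraries is a spread between pools and not between single mice.

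An imprinted gene is expressed mainly from the copy inherited from 1 parent. In this cluster the choice depends on an imprinting centre at the start of Snrpn, which is methylated on the maternal chromosome from the germ line on. Magel2, Ndn, Mkrn3, Peg12 and Snrpn are expressed from the paternal chromosome. Ube3a is expressed from the maternal chromosome in neurons, where a paternal antisense transcript, the 3′ part of the long noncoding RNA Snhg14, runs through it and silences the paternal copy. Loss of the paternal genes underlies Prader-Willi syndrome and loss of maternal UBE3A underlies Angelman syndrome. The values below sum both parental copies, so they do not say from which copy a transcript came.

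On the mm9 assembly, with the GENCODE vM1 annotation, the 6 genes spanned 3.13 Mb of chromosome 7. Ube3a lay at chr7:66484122-66562097 on the plus strand with up to 13 exons, and Snrpn at chr7:67127388-67285105 on the minus strand with up to 11. The other four are single-exon genes that sit close together after a gap of 2.21 Mb. Ndn lay at chr7:69493163-69494814 (plus strand), Magel2 27.1 kb further at chr7:69521865-69526526 (plus strand), Mkrn3 36.0 kb beyond it at chr7:69562479-69565039 (minus strand) and Peg12 41.7 kb beyond that at chr7:69606757-69609396 (minus strand).

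The promoters of the 3 neighbours Ndn, Magel2 and Mkrn3 are shown because Mbd2 binds methylated CpG and because the first pair fell in Mbd2-/- mice while Mkrn3 did not pass the test. They are the RefSeq windows of 300 bases, from 250 bases before to 50 bases after the start, on the GRCm38.p6 assembly, whose coordinates differ from those of mm9. All 6 genes matched the RefSeq promoter table. Each is written 5′ to 3′ on the strand of the gene, with every CpG in capitals: Ndn at chr7:62348027-62348326 (plus), Magel2 at chr7:62376729-62377028 (plus) and Mkrn3 at chr7:62420104-62420403 (minus).
Ndn: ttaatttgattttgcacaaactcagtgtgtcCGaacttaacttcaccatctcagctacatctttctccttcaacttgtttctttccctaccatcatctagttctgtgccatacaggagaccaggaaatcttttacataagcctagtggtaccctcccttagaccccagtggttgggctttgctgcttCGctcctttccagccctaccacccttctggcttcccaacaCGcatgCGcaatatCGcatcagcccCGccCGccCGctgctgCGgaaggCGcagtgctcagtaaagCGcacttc
Magel2: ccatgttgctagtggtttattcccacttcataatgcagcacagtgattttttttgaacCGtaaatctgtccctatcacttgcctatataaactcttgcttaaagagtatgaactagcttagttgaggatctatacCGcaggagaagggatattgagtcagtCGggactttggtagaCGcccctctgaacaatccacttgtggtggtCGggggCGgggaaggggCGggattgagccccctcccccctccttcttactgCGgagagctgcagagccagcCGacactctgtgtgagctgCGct
Mkrn3: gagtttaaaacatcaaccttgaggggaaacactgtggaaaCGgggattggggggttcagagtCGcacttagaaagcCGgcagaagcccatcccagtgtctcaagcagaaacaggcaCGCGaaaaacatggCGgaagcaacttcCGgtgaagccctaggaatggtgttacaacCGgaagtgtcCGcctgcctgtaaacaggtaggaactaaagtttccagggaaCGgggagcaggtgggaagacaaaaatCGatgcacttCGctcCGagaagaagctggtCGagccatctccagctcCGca

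The Ndn window held 11 CpGs, the Magel2 window 10 and the Mkrn3 window 15, against a median of 7 over 32817 mouse promoter windows. Peg12 had 12, and Ube3a, with 29, had more than 87.1% of all windows. RefSeq gave Snrpn 4 starts with 7, 4, 3 and 2 CpGs, and the window with 7 is also that of Snurf, which shares its start. The palindrome CGCATGCG, chosen after the sequences were seen, occurred in the Ndn window and in all 4 Snrpn windows, in none of the Magel2, Mkrn3, Peg12 and Ube3a windows, and in 1.86% of all windows. The Snrpn windows with 4, 3 and 2 CpGs share long stretches of sequence on both sides of the palindrome, so these occurrences are not independent. DNA methylation and Mbd2 binding at these windows were not analysed here.

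The values are normalized counts, the reads on a gene divided by a size factor of the library. The libraries held between 8087750 and 23790825 reads on genes. Genes with a mean of at least 10 normalized counts, 14504 in all, were compared between genotypes with limma on log2(normalized count + 1), and a gene counted as called when its p, adjusted over all of them by Benjamini-Hochberg, was under 0.05. Of these genes 10.0% were called lower in Mbd2-/- and 12.0% higher. For Mbd2 itself the wild-type libraries lay between 295 and 371 normalized counts and the Mbd2-/- libraries between 217 and 339, with a log2 fold change of -0.43 (limma adjusted p = 0.0174). The call was lost without wild-type replicate 3 or Mbd2-/- replicates 1 or 2 (limma adjusted p up to 0.0625). These ranges overlapped, and the count covers the whole gene, including parts that the deletion leaves in place, so it is only a partial check of the genotype labels. Leaving out Mbd2-/- replicate 4 raised the number of called genes from 3185 to 5155, and for the counts that changed by over 1.5 times without this library both values are given.

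Per kilobase of annotated exon, the wild-type levels ranked Ndn first, with 1555 ± 42.4 normalized counts per kb (SD, n = 4), and Ube3a next, with 335 ± 19.3. Magel2 (7.98 ± 1.28 per kb), Snrpn (6.59 ± 3.80) and Mkrn3 (4.58 ± 1.11) followed far below. The ranges of Magel2 and Snrpn overlapped, as did those of Snrpn and Mkrn3. Peg12 was lowest with 0.857 ± 0.325 per kb, and its highest wild-type library (1.14) lay under the lowest of Mkrn3 (3.23).

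Ndn and Magel2 were lower in Mbd2-/- hippocampus, and no tested member was called higher, beside 12.0% of all tested genes. Of the 5 genes that passed the filter, 2 were called lower, beside 10.0% of all tested genes. In both, every Mbd2-/- library lay under every wild-type library, which held for 11.5% of the tested genes. No member had all Mbd2-/- libraries above all wild-type libraries, a pattern seen in 12.1% of the tested genes. The count of genes called higher was 0 by limma and by edgeR, and also 0 at an unadjusted limma p under 0.05. DESeq2 also gave 0, but it gave no adjusted p to Mkrn3, the tested member with a log2 fold change above 0. Mkrn3 could thus not be called there. In bulk tissue, fewer cells of a type and less RNA per cell cannot be told apart.

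**Figure D1:**
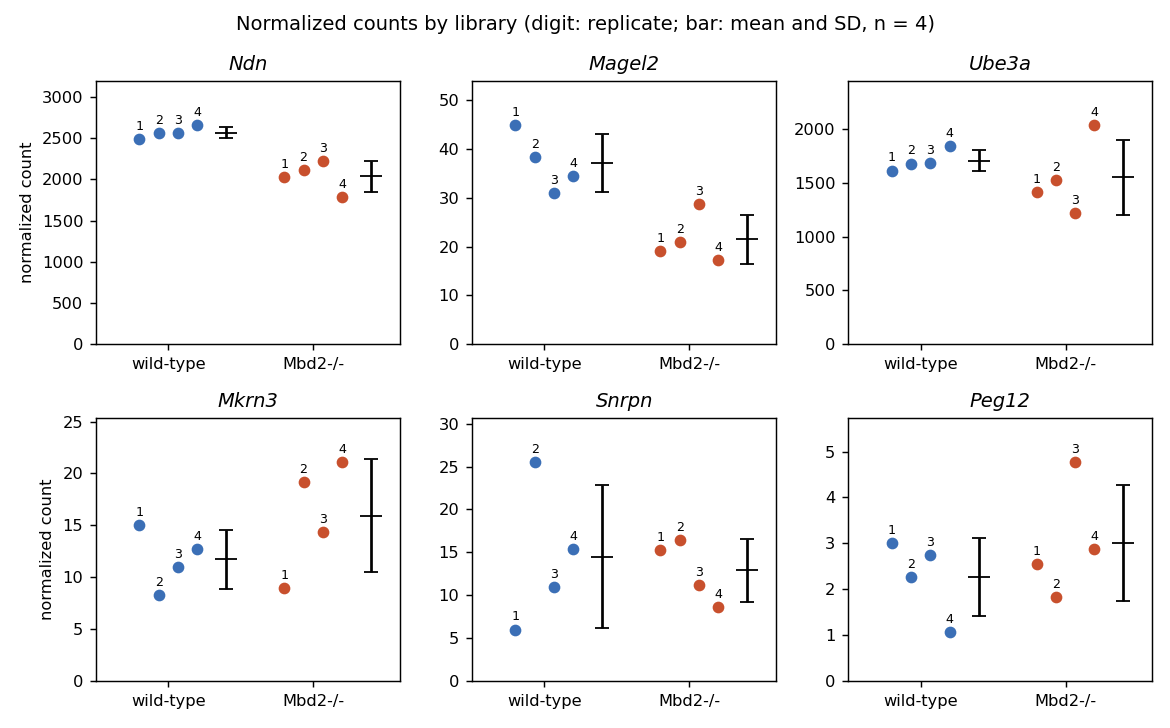
Normalized counts of the 6 genes in each library (y axis, from 0, a different scale in each panel; digits are replicate numbers, bars the mean and SD of 4 libraries). The genotypes are separated for Ndn and Magel2 and overlap for the other four genes, and Mbd2-/- replicate 4 is the lowest point for Ndn and Magel2 and the highest for Ube3a and Mkrn3.

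Ndn encodes necdin, a MAGE family protein of postmitotic neurons that restrains cell division and takes part in neuronal differentiation and survival. It had 2493, 2562, 2561 and 2663 normalized counts in wild-type replicates 1 to 4, and 2029, 2112, 2220 and 1785 in Mbd2-/- replicates 1 to 4. The wild-type libraries were close together and all of them exceeded the highest Mbd2-/- library. The mean fell from 2569 ± 70.04 to 2037 ± 185 (SD, n = 4), a change of -20.7%. The log2 fold change was -0.34 with a standard error of 0.06 and a 95% confidence interval of -0.47 to -0.21 (limma adjusted p = 0.00138). The exact two-sided permutation test gave p = 0.0286, the smallest that 4 libraries against 4 allow. Between 1393 and 5013 reads per library lay behind these values, for which counting alone gives an error of 1.41% to 2.68%, beside a coefficient of variation of 2.73% between wild-type and 9.08% between Mbd2-/- libraries. RefSeq also lists a long noncoding gene, Gm32061, over Ndn, Magel2 and Mkrn3, and how reads on shared stretches were assigned is not given in the sources used here.

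Magel2 encodes a MAGE family protein that joins the ubiquitin ligase Trim27 and the deubiquitinase Usp7 and, with the WASH complex, promotes the recycling of cargo from endosomes by retromer. It had 45.0, 38.4, 31.0 and 34.5 normalized counts in the wild-type libraries, and 19.2, 21.0, 28.7 and 17.3 in the Mbd2-/- libraries. The highest Mbd2-/- library, replicate 3, came near the lowest wild-type library, also replicate 3, and the groups did not overlap. The mean fell from 37.2 ± 5.98 to 21.5 ± 5.00 (SD, n = 4), a change of -42.1%. The log2 fold change was -0.77 with a standard error of 0.20 and a 95% confidence interval of -1.20 to -0.35 (limma adjusted p = 0.0127), and the exact permutation test again gave its smallest p, 0.0286. Only 15 to 65 reads per library were counted, 254 in all. Counting alone gives an error of 12.4% to 25.8% at this depth, beside coefficients of variation of 16.1% and 23.2% between the libraries of each genotype.

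The log2 ratio of Ndn to Magel2 within a library, with 1 added to each normalized count, depends little on the size factor. It was 5.76, 6.02, 6.32 and 6.23 in wild-type and 6.65, 6.58, 6.23 and 6.61 in Mbd2-/- libraries. Mbd2-/- replicate 3 fell within the wild-type range and the other three lay above it. The difference of the means was 0.43 (exact permutation p = 0.0857, adjusted over 4 ratios 0.343), and 0.34 with 5 added in place of 1 (exact permutation p = 0.0857). The larger fold change of Magel2 than of Ndn was thus not shown to be a difference between the genes.

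Mkrn3, the next gene along, encodes a makorin RING-finger ubiquitin ligase known for its brake on the onset of puberty. It had 14.99, 8.28, 10.9 and 12.7 normalized counts in wild-type and 8.94, 19.2, 14.3 and 21.1 in Mbd2-/- libraries. The groups overlapped, with Mbd2-/- replicate 1 near the bottom of all 8 libraries and replicates 2 and 4 above every wild-type library. The means were 11.7 ± 2.84 and 15.9 ± 5.45 (SD, n = 4). The log2 fold change of 0.37 had a 95% confidence interval of -0.26 to 1.003 (limma adjusted p = 0.395, exact permutation p = 0.257). With 7 to 24 reads per library, a change between 0.835-fold and 2.00-fold lies within this interval. Leaving out 1 library moved the value between 0.22 (without Mbd2-/- replicate 4) and 0.61 (without Mbd2-/- replicate 1), and none of these fits called Mkrn3.

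Peg12, also called Frat3, encodes a Gsk3-binding protein of the Wnt pathway. It had 3.00, 2.26, 2.73 and 1.06 normalized counts in wild-type and 2.55, 1.83, 4.78 and 2.88 in Mbd2-/- libraries. Each of these values stands for 2 or 3 reads, 20 reads over all libraries, and the groups overlapped. Peg12 did not pass the filter on low values. Fitted without the filter its log2 fold change was 0.29 with a 95% confidence interval of -0.52 to 1.10 (limma adjusted p = 0.671), and a change of either sign was not detectable at this depth.

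Snrpn encodes SmN, the brain form of the Sm protein SmB/B′ of the spliceosome, and its start region belongs to the imprinting centre of the cluster. It had 6.00, 25.6, 10.9 and 15.4 normalized counts in wild-type and 15.3, 16.5, 11.2 and 8.65 in Mbd2-/- libraries. The wild-type libraries alone covered the whole Mbd2-/- range. The means were 14.5 ± 8.34 and 12.9 ± 3.64 (SD, n = 4), with a log2 fold change of -0.03 and a 95% confidence interval of -0.79 to 0.73 (limma adjusted p = 0.964, exact permutation p = 0.971). The sign of this value changed when 1 library was left out.

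The low count of Snrpn, 4 to 34 reads per library and 125 in all, is set beside that of Snrpb, the paralog that encodes SmB/B′, at 711 ± 43.8 normalized counts in wild-type. In RefSeq, Snurf and Snhg14 overlap Snrpn, and Snurf is not analysed here. How reads on the exons shared by Snrpn, Snurf and Snhg14 were assigned is not given in the sources used here, so the Snrpn row may hold only part of its transcripts and is reported as uncertain. In Mbd2-/- hippocampus Snrpb rose to 882 ± 85.0 (log2 fold change 0.31, limma adjusted p = 0.00736, or 0.17 and 0.0565 with the trend of fold change with transcript length removed). The log2 ratio of Snrpn to Snrpb differed by -0.34 between genotypes (exact permutation p = 0.571, adjusted over 4 ratios 0.762).

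Ube3a encodes the HECT-type ubiquitin ligase E6-AP. It had 1614, 1679, 1686 and 1846 normalized counts in wild-type and 1419, 1522, 1219 and 2038 in Mbd2-/- libraries. Mbd2-/- replicates 1 to 3 lay under every wild-type library, and replicate 4 lay above every one of them. The means were 1706 ± 98.4 and 1549 ± 349 (SD, n = 4), and the log2 fold change of -0.16 had a 95% confidence interval of -0.42 to 0.09 (limma adjusted p = 0.350, exact permutation p = 0.371). Without Mbd2-/- replicate 4 it was -0.30 with a standard error of 0.06 (limma adjusted p = 5.91e-04), a fit in which 17.6% of all tested genes were called lower. The value was -0.06 without Mbd2-/- replicate 3 and -0.09 with the trend of fold change with transcript length removed, and neither was called. Of all the alternatives, the fit without replicate 4 was the 1 that called Ube3a. Counting without strand would not separate Ube3a from the antisense part of Snhg14, and whether the counting used strand is not given in the sources used here.

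The noncoding rows of the cluster were read next, since several come from the long Snhg14 transcription unit that hosts the snoRNA arrays between Snrpn and Ube3a. Of 17 such names 7 were found, and all 7 were tested. B230209E15Rik was called lower, from 295 ± 25.7 to 239 ± 31.7 normalized counts (log2 fold change -0.31, limma adjusted p = 0.0287), a call lost without any 1 of wild-type replicates 1, 2 and 4 and Mbd2-/- replicates 1, 2 and 3 (limma adjusted p up to 0.0990). Snhg14 had 367, 340, 318 and 371 normalized counts in wild-type and 295, 311, 252 and 583 in Mbd2-/- libraries. Replicates 1 to 3 again lay under every wild-type library and replicate 4 above them all. Its log2 fold change was -0.03 over all libraries (limma adjusted p = 0.941) and -0.29 without Mbd2-/- replicate 4 (limma adjusted p = 0.00706).

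Ipw, C230091D08Rik, A230057D06Rik, A330076H08Rik and Snord64 were not called, with log2 fold changes of -0.13, -0.28, -0.16, -0.04 and 0.04. Without Mbd2-/- replicate 4 these were -0.31, -0.46, -0.21, -0.27 and -0.09 in the same order. Over the 13 rows of the cluster, members included, Mbd2-/- replicate 4 was the highest of all 8 libraries in 7 (Ube3a, C230091D08Rik, Snhg14, Ipw, Snord64, A330076H08Rik and Mkrn3) and the lowest of all 8 in 2 (Ndn and Magel2). Without this library 7 of the 12 tested rows were called lower and 0 higher, in a fit that called 17.6% of all tested genes lower and 17.9% higher. They were Ube3a, C230091D08Rik, Snhg14, Ipw, B230209E15Rik, Ndn and Magel2. Ndn and Magel2 were called lower with it and without it, with log2 fold changes of -0.28 and -0.68 in its absence (limma adjusted p = 3.64e-05 and 0.0136). What sets replicate 4 apart was not tested.

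**Figure D2:**
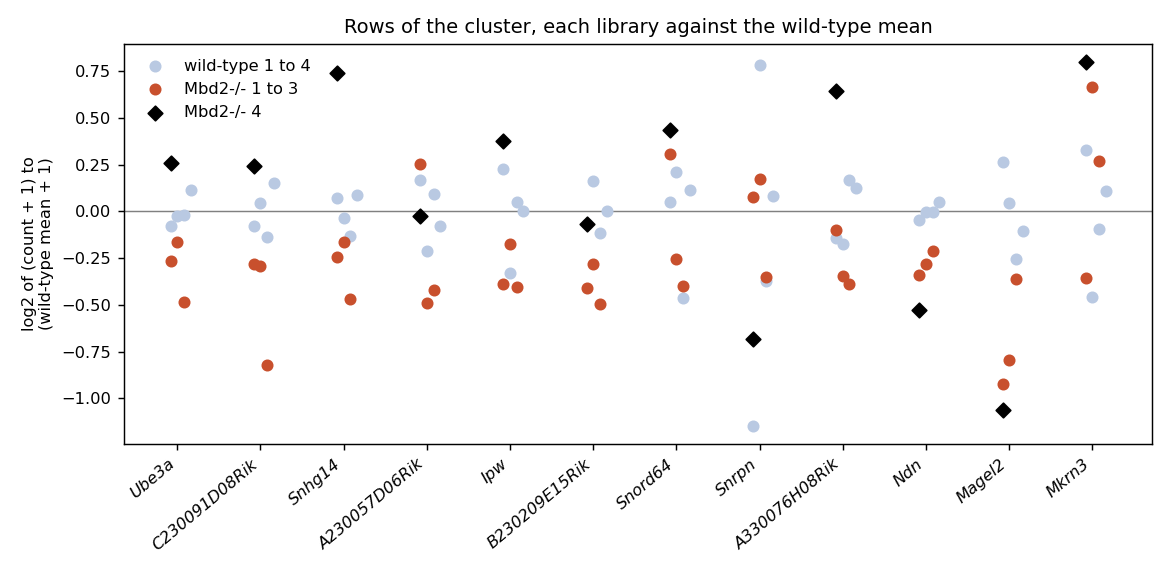
Each tested row of the cluster in chromosome order (x axis) by library, as the log2 of its normalized count plus 1 over the wild-type mean plus 1 (y axis); pale circles are wild-type libraries, red circles Mbd2-/- replicates 1 to 3 and black diamonds Mbd2-/- replicate 4. The diamonds lie above all other points for 7 rows, Ube3a, Snhg14 and Mkrn3 among them, and below all other points for Ndn and Magel2.

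Genes around the cluster were compared to place the fall of Ndn and Magel2 among their neighbours. Within 5 Mb on either side, 44 genes that could be placed were tested, 8 of them within the cluster. Outside it the distal flank had 2 called lower and 4 called higher of 23, and the proximal flank 0 lower and 2 higher of 13. Over all tested genes 10.0% were called lower and 12.0% higher. The nearest placed and tested neighbour beyond Peg12, the nicotinic receptor gene Chrna7, had a log2 fold change of -0.08 (limma adjusted p = 0.435). Toward Snrpn the nearest placed row was A330076H08Rik, which was not called (log2 fold change -0.04, limma adjusted p = 0.921, or -0.27 and 0.326 without Mbd2-/- replicate 4), and on the other side Ndn and Magel2 were followed by Mkrn3, which was not called either.

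Of a list of 22 flanking genes with biallelic expression, 21 were found and 20 were tested. Of these 3 were called higher and 1 lower, beside 12.0% and 10.0% of all tested genes. Their median log2 fold change was -0.07, beside -9.1e-05 for all tested genes. Oca2, the melanosome transporter gene, rose from 15.1 ± 3.66 to 44.7 ± 4.76 normalized counts (log2 fold change 1.53, limma adjusted p = 1.96e-04). The smaller calls were Mcee (0.34, limma adjusted p = 0.0102), Gabra5 (0.16, limma adjusted p = 0.0454) and Fam189a1 (-0.15, limma adjusted p = 0.0460). Oca2 was called in every alternative that tested it. Gabra5 lost its call without any 1 of the wild-type libraries or Mbd2-/- replicates 1 or 2 (limma adjusted p up to 0.145), and also with upper-quartile scaling, without a filter, with the replicate block and with the trend of fold change with transcript length removed. Fam189a1 lost its call in 7 of 8 fits without a library, all but that without Mbd2-/- replicate 4 (limma adjusted p up to 0.129), and also without a filter, with the block and with the length trend removed. Without Mbd2-/- replicate 4 the flanking genes called lower numbered 6 and those called higher 3, in a fit that called 17.6% of all tested genes lower and 17.9% higher. Herc2, the ubiquitin ligase gene, was among the 6 (log2 fold change -0.21, limma adjusted p = 0.00403). Mcee was not called with the length trend removed (log2 fold change 0.05, limma adjusted p = 0.712).

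**Figure D3:**
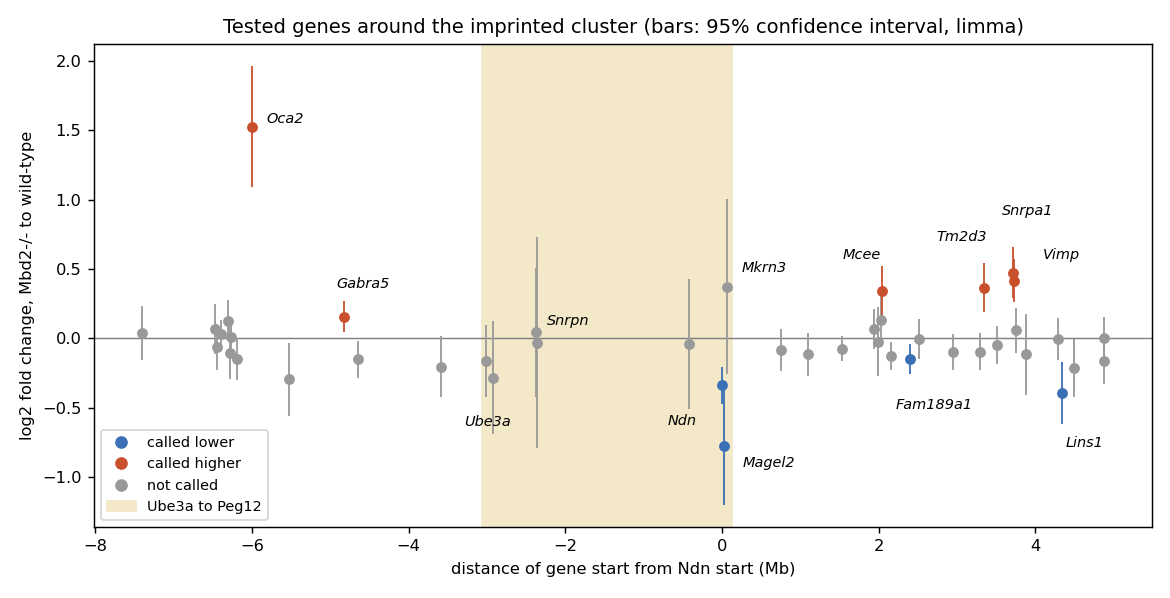
Log2 fold change of Mbd2-/- to wild-type with its 95% confidence interval (y axis) for the 44 tested genes within 5 Mb of the cluster, by distance of the gene start from that of Ndn in Mb (x axis); blue and red points were called lower and higher by limma, grey points were not called, and the shaded band runs from Ube3a to Peg12. Ndn and Magel2 are the 2 genes called lower within the band, and Oca2 at 1.53 is the highest point outside it.

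Genes that act with the members were followed as lists. Among the 6 other MAGE genes tested, Magee1 fell by 0.29 and Mageh1 rose by 0.29 on the log2 scale (limma adjusted p = 0.00110 and 0.0111), while Maged1, a close relative of Ndn, had a log2 fold change of -0.03 (limma adjusted p = 0.760). Of 10 Magel2 partners tested, Usp7 (-0.16, limma adjusted p = 0.0738) and Trim27 (-0.02, limma adjusted p = 0.883) were not called. In the same list the retromer genes Vps29 (0.43) and Vps26a (0.32) and the WASH complex gene Ccdc53 (0.56) were called higher and the WASH complex gene Fam21 (-0.16) lower, with a list median of -0.01. Fam21 lost its call without wild-type replicates 1, 2 or 3 or Mbd2-/- replicates 1 or 2 (limma adjusted p up to 0.120), and also without a filter, with the replicate block and with the length trend removed (-0.11, limma adjusted p = 0.125). Mageh1 lost its call with the length trend removed (0.10, limma adjusted p = 0.324). Without Mbd2-/- replicate 4 the partners called lower numbered 2, Fam21 and Usp7, and those called higher 3. Over all tested genes 10.0% were called lower and 12.0% higher, and 17.6% and 17.9% in that fit.

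The Sm core and SMN genes, which share the spliceosomal role of Snrpn, had 6 called higher and 0 lower of 9. Over all tested genes 12.0% were called higher and 10.0% lower. The median log2 fold change of the list was 0.31. Snrpb, among the 6, was not called with the length trend removed (0.17, limma adjusted p = 0.0565), and the list was not counted in that fit. At an unadjusted limma p under 0.05 the count called lower was still 0, and edgeR and DESeq2 also gave 0. Snrpn itself is not in that list. The Ube3a substrates and partners (7 tested), the makorin relatives Mkrn1 and Mkrn2 and the Frat and Gsk3 genes (6 tested) held no call by limma, edgeR or DESeq2. At an unadjusted limma p under 0.05, 2 substrates were higher, 2 Frat and Gsk3 genes were lower and neither makorin passed. Without Mbd2-/- replicate 4 the substrates and partners had 1 called lower (Herc2) and 2 higher (Arc and Psmd4), and the Frat and Gsk3 genes 1 lower (Gsk3b) and 0 higher. That fit called 17.6% of all tested genes lower and 17.9% higher.

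The fall of Ndn and Magel2 was set beside imprinted genes elsewhere in the genome. Of 20 other paternally expressed genes tested, 8 were called lower and 1 higher, beside 10.0% and 12.0% of all tested genes. The median log2 fold change of the 20 was -0.25, with values under 0 in 15 of them. Dlk1, a Notch ligand-like growth regulator, was at -1.20 (limma adjusted p = 7.7e-05), the zinc finger gene Peg3 at -0.36 (limma adjusted p = 3.4e-04) and Igf2 was the gene called higher, at 0.43 (limma adjusted p = 1.98e-04). Of 11 other maternally expressed genes tested, 2 were called lower and 0 higher, beside the same 10.0% and 12.0%, with a median of -0.18. No test was run over either list. For these 11 the count higher was also 0 at an unadjusted limma p under 0.05 and by edgeR and DESeq2. Without Mbd2-/- replicate 4 the paternally expressed genes had 11 called lower and 3 higher, and the maternally expressed genes 4 lower and 0 higher. In that fit 17.6% of all tested genes were called lower and 17.9% higher. The median of Ndn, Magel2, Mkrn3, Snrpn and Ube3a was -0.16, and -0.28 without Mbd2-/- replicate 4.

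Markers of other tissue and cells moved with the genotype, and their part in the fall of Ndn and Magel2 was not tested. Ndn and Magel2 are strongly expressed in the hypothalamus. Of 13 hypothalamic markers 9 had means under 10 normalized counts, and the defining neuropeptide genes Hcrt and Pmch stayed under 1 normalized count in every library. The summed level of that list was 109 to 131 in wild-type and 86.0 to 105 in Mbd2-/- libraries. Of the 4 markers tested 3 had log2 fold changes under 0, the median was -0.45, and 2 were lower at an unadjusted limma p under 0.05. Cartpt was called lower (log2 fold change -0.998, limma adjusted p = 0.00642) and Pomc, at 0.50, was not called (limma adjusted p = 0.167). Of 13 thalamic markers 11 were called lower and 0 higher, with summed levels of 8912 to 9245 in wild-type and 6749 to 7458 in Mbd2-/-. All 12 choroid plexus markers were called higher, with sums of 23887 to 25516 against 46028 to 52747.

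Glial markers were also higher in Mbd2-/- libraries. Of 5 astrocyte markers 4 were called higher, with sums of 19770 to 20689 in wild-type and 25219 to 25611 in Mbd2-/-. Of 5 oligodendrocyte markers 4 were called higher, with sums of 69226 to 70550 against 82859 to 88238, and of 5 microglial markers 3, with sums of 3136 to 3301 against 3564 to 3932. The count called lower was 0 in each of these lists by limma, edgeR and DESeq2 and at an unadjusted limma p under 0.05.

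Within the hippocampus, 12 subfield markers were tested, of which 3 were called lower and 2 higher, with a median log2 fold change of -0.04. Their sums of 12859 to 13684 in wild-type and 12544 to 13312 in Mbd2-/- libraries overlapped. Of 8 pan-neuronal markers 1 was called lower, with a median of -0.05. Of 5 striatal markers 1 was called lower and 1 higher. Over all tested genes 10.0% were called lower and 12.0% higher.

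**Figure D4:**
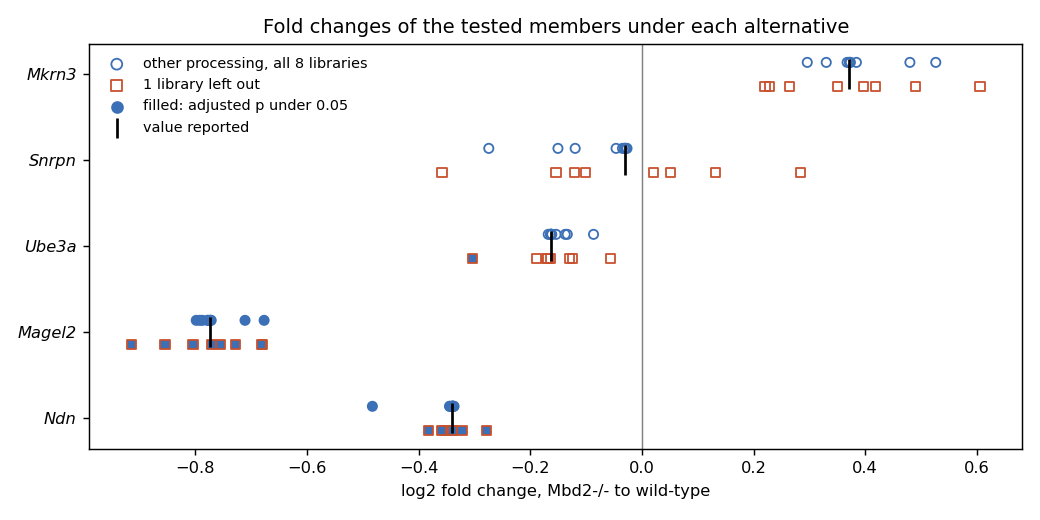
Log2 fold change of Mbd2-/- to wild-type (x axis) of the 5 tested members (y axis) under each alternative; blue circles are other scalings, filters, offsets, tools and fits on all 8 libraries, red squares are fits without 1 library, filled symbols have an adjusted p under 0.05 and black bars are the reported values. All symbols of Ndn and Magel2 are filled and lie below 0, and for Ube3a only the fit without Mbd2-/- replicate 4, at -0.30, is filled.

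The genes whose library-to-library pattern was most like that of each member were taken by Pearson's r of the deviations from the genotype means over 8 libraries, as a description over all tested genes. They were Tbrg1, Cdh15 and Txn2 for Ndn (r = 0.986, 0.982 and 0.979) and Klhl22, Gfra2 and Atp2a3 for Magel2 (r = 0.976, 0.974 and 0.973). For Ube3a they were Syt14, Taok1 and Slc24a2 (r = 0.995, 0.991 and 0.990), for Snrpn Ywhae, Gorasp2 and Fyn (r = 0.969, 0.963 and 0.959) and for Mkrn3 Chaf1a, Gm15941 and Slc35e2 (r = 0.984, 0.973 and 0.966). No other member was among the 3 genes nearest to any member. These genes were picked as the highest r over all tested genes with only 8 libraries, so high values come from the selection itself, and none was tested. Counting alone gives an error of 17.1% to 50.0% per library for Snrpn and 20.4% to 37.8% for Mkrn3.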

How the data were processed

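Paired-end reads from an Illumina HiSeq were deduplicated by the authors and mapped with STAR (mm9), and the authors' own comparison used DESeq2. Tool versions and the counting tool are not given in the sources used here. The deposited signal of each library is the authors' normalized count, the reads on a gene divided by a size factor. Reads were recovered as whole multiples of the smallest value above 0 (100% whole within 0.01). The authors' fold changes, standard errors, Wald statistics and p-values were also deposited and were not used. Genes with a mean of at least 10 were tested with limma 3.58.1 (mean-variance trend, robust) in R 4.3.3 on log2(value + 1), without covariates, and single genes with exact permutation tests. The fit was tested on simulated data. Symbols were placed with GENCODE vM1, 16812 directly and 1290 through a synonym. Alternatives were edgeR 4.0.16, DESeq2 1.42.0 and limma-voom on recovered reads, other scalings, filters and offsets, a replicate block, removal of the length trend, and each library left out. The members, lists and tests were chosen with earlier results of these data known. Named genes are the members, Mbd2, the tested noncoding rows of the cluster, called flanking genes, and called or most expressed genes of the other lists, and not all of these are printed. Chrna7, Hcrt, Pmch, Pomc, and genes named only for a call without Mbd2-/- replicate 4 were chosen after their values were seen. The mice were littermates from heterozygous parents, which litters each pool drew on is not given in the sources used here, and p-values measure only the spread between these pools, and read totals cover counting error only.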

Additional observations from a re-analysis of the deposited data

Results flagged for a closer look

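In 74 groups of 4 libraries, the gap of the most extreme library to the next was compared with the range of the group, and 3 gaps exceeded Dixon's critical value at the 95% level, where chance flags about 1 in 20 groups. For the log2 ratio of Ndn to Magel2, Mbd2-/- replicate 3 lay below the other Mbd2-/- libraries (6.23 against 6.58 to 6.65, with a gap of 0.834 of the range). For the log2 ratio of Snrpn to Ube3a, Mbd2-/- replicate 4 lay lowest (-7.72 against -6.65 to -6.44, with a gap of 0.839 of the range), and the genotypes differed by 0.13 (exact permutation p = 0.771). For the flanking gene Otud7a, Mbd2-/- replicate 3 was highest, at 877 normalized counts against 712 to 715.1 in the others, with a gap of 0.981 of the range.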

How the results depend on the processing

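Ndn was called lower in all 19 alternatives (log2 fold change -0.48 to -0.28) and Magel2 in the 18 that tested it (-0.91 to -0.68). The largest adjusted p of Ndn was 0.0087, by limma without wild-type replicate 4. That of Magel2 was 0.0497, by limma without wild-type replicate 1, close to the threshold. With a mean of at least 50 normalized counts the members called lower numbered 1, because Magel2 was not tested there, and without single libraries 2 to 3, with Ube3a added only without Mbd2-/- replicate 4. Genes called numbered 2109 with the length trend removed and 2068 to 5155 without single libraries, with 2098, 2068, 2099 and 2108 without wild-type replicates 1 and 3 and Mbd2-/- replicates 1 and 2. With the length trend removed, flanking genes called higher numbered 1 and the log2 fold change of Herc2 turned to 0.015. Flanking genes called lower numbered 0 without a filter, with the length trend removed and with the replicate block, 2 with DESeq2, and 0 to 6 without single libraries, 6 without Mbd2-/- replicate 4. Same-numbered libraries did not deviate together (r = -0.10, -0.06, 0.07 and 0.04), but this cannot tell whether pools were paired by litter, which stays unknown. The block left 2 members lower, 0 higher and 3192 genes called. Snrpn ranged from -0.358 to 0.284 without single libraries and turned positive without wild-type replicates 2 or 4 or Mbd2-/- replicates 3 or 4. Snhg14 turned to 0.049 with DESeq2, 0.075 with edgeR and 0.010 with limma-voom, and ranged from -0.290 to 0.113 without single libraries, positive without Mbd2-/- replicates 1, 2 or 3. Without single libraries the ratio differences ranged from -0.169 to 0.454 (Snrpn to Ube3a), -0.625 to 0.0042 (Ndn to Snrpn) and -0.686 to 0.020 (Snrpn to Snrpb), changing sign without wild-type replicate 1, 1 and 2. Mbd2 was not called without wild-type replicate 3 or Mbd2-/- replicates 1 or 2 (adjusted p = 0.0625, 0.0542 and 0.0579). DESeq2 gave Mkrn3 and Snrpn no adjusted p. Causes were not tested. Depth limits Peg12, Mkrn3, Snrpn and Magel2.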
